A study of Mus musculus with 12 samples.

Results

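Dek cKO hippocampus was compared with WT hippocampus within 6 libraries that came from the same naming series. All 6 library names in the expression table begin with CMV, and the cKO and WT libraries therefore did not differ in that prefix. The rule took 3 cKO libraries, labelled female cKO replicate 3, male cKO replicate 2 and male cKO replicate 3, and the 3 libraries labelled male WT replicate 1, 2 and 3, out of 12 libraries in the series. In the cKO line, exons 3 and 4 of Dek lie between loxP sites and were removed in the germline by a CMV-driven Cre. The Cre transgene, which came from mice on a C57Bl/6 background, was then bred out, and the line was kept by mating heterozygotes. WT mice were untreated controls with an intact Dek gene, and both genotypes were adults of 6 to 12 months. The deletion was present in every cell from the germline on, so the comparison holds life-long effects and not only those of the adult hippocampus. The tissue was microdissected whole hippocampus, and levels are given as TPM, which scales the reads of a gene by its length and by the total of its library.

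Y-linked transcripts were measured to check the sex labels. Eif2s3y, which encodes a subunit of a translation initiation factor, stood at 72.4, 85.3 and 92.0 TPM in male WT replicates 1, 2 and 3, and at 72.7, 79.5 and 69.0 TPM in female cKO replicate 3, male cKO replicate 2 and male cKO replicate 3. The library labelled female cKO replicate 3 thus carried the gene at the level of the libraries labelled male. In the other 6 libraries of the series, including the one labelled male cKO replicate 1, Eif2s3y was between 0.111 and 0.993 TPM. Ddx3y, a Y-linked RNA helicase, was 10.9 TPM in male cKO replicate 3 and 20.1 to 24.7 TPM in the other 5. Of the hippocampal markers, Grik4, a kainate receptor subunit of CA3 neurons, was present at 26.5 to 49.5 TPM and Prox1, a transcription factor of dentate granule cells, at 1.29 to 4.95 TPM. Spock1, another CA3-associated gene, was listed at 0 in 5 of the 6 libraries. Summed TPM over listed genes was 828786 to 845553 per library in the 6, and read depth is not known from these values.

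DEK is a chromatin protein that binds DNA and histones and acts in replication, repair and transcription. It assists the loading of histone H3.3 and helps to keep heterochromatin compact. In brain it is made by neurons and glia, with many positive cells in the dentate gyrus. The sequences that the deletion removes are shown because they define the genotype compared here. In the GENCODE M21 model Dek-201 (GRCm38, minus strand, 11 exons), exons 3 and 4 are wholly coding. They hold 102 and 110 bases, which is 18.6% of the 1140 coding bases, and their sum of 212 leaves a remainder of 2 when divided by 3. Bases are given in lower case as transcribed.
Dek exon 3, chr13:47101973-47102074: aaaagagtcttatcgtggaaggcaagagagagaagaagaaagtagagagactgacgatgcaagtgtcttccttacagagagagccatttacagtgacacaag
Dek exon 4, chr13:47101623-47101732: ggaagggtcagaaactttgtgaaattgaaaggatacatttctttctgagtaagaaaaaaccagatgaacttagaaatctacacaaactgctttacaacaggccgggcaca

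Dek itself (chr13:47084775-47106201) fell in all 3 cKO libraries. It was measured at 51.9, 48.7 and 48.8 TPM in male WT replicates 1, 2 and 3, and at 6.52, 8.10 and 5.55 TPM in female cKO replicate 3, male cKO replicate 2 and male cKO replicate 3. The highest cKO value was far below the lowest WT value. The means were 49.8 ± 1.81 TPM in WT and 6.72 ± 1.29 TPM in cKO (SD, n = 3 each), and the log2 fold change on log2(TPM + 0.1) was -2.89 ± 0.14 (SE; limma, adjusted p = 0.00122). The other 6 libraries gave -2.60 ± 0.13 (SE), and the 2 effects differed by -0.29 ± 0.20 (SE; limma, adjusted p = 0.793 for the difference). The table counts the gene as a whole, so the exons carried by the remaining transcript were not resolved.

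Few other genes separated the genotypes beyond the spread of 3 libraries a group. Of 14069 genes whose mean level reached 1 TPM, 2 passed an adjusted p of 0.05 with a fold over 1.2, both lower in cKO (0.0142% of genes tested). These were Dek and Gm16265. No gene passed in the other direction by limma, where 403 had an unadjusted p under 0.05 with a higher level in cKO (2.86%) and 343 with a lower level (2.44%). With the added requirement of a 1.5-fold difference, called nominal here, 156 genes were higher (1.11%) and 79 were lower (0.562%). The 3 cKO values lay all above the 3 WT values in 779 genes (5.54%) and all below in 813 (5.78%). The median log2 fold change over all genes tested was 0.00 on this scale. An exact permutation test of 3 against 3 cannot give a two-sided p below 0.1, so the limma model, which shares its variance estimate across genes, was used. In simulated libraries with 200 changed genes, that model found 71% of genes changed by 1 log2 unit and 91.5% of those changed by 2. The simulation drew independent noise with 1 spread per gene for both genotypes. In the 6 libraries the median SD was 0.17 in cKO and 0.11 in WT, so these shares need not hold for them.

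**Figure D1:**
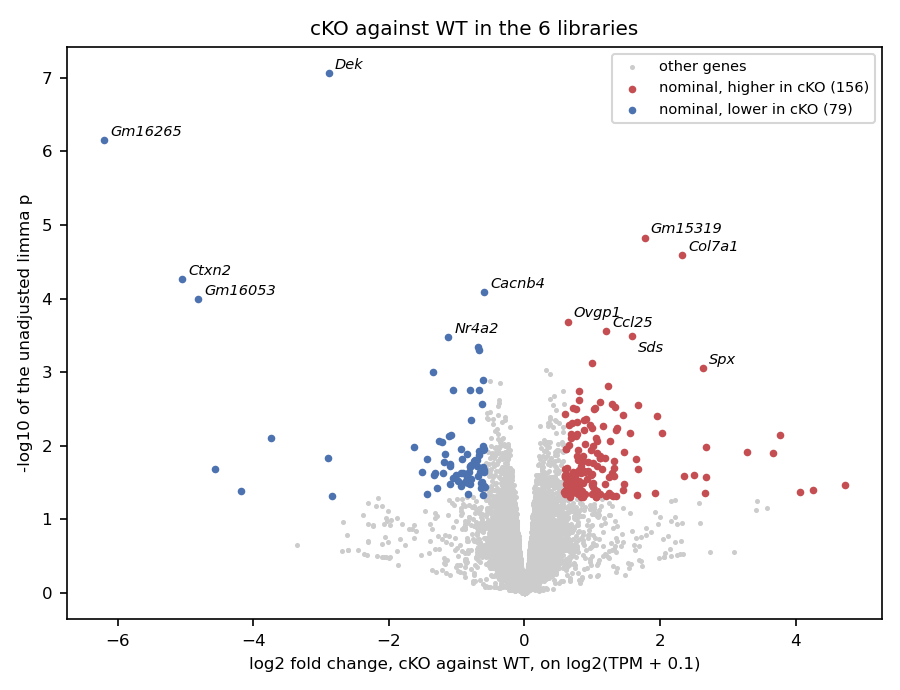
Each point is 1 of 14069 genes, placed by its log2 fold change of cKO against WT in the 6 libraries (x axis, log2(TPM + 0.1)) and by -log10 of the unadjusted limma p (y axis). Red and blue points are the 156 higher and 79 lower nominal genes, and Dek stands highest at a log2 fold change of -2.89.

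Gm16265, a processed pseudogene on the X chromosome (chrX:12670635-12670742), was the second gene called, and its values rest on listed zeros. It was at 6.25, 7.38 and 8.43 TPM in the 3 WT libraries and listed at 0 in all 3 cKO libraries (limma, adjusted p = 0.00502). In the other 6 libraries it was listed at 0 in 2 of 3 WT and 1 of 3 cKO libraries, and at 5.53 to 6.87 TPM in the remaining 3. Gm16053, a processed pseudogene on chromosome 7, was likewise at 2.70, 4.44 and 1.67 TPM in WT and listed at 0 in the 3 cKO libraries (adjusted p = 0.206). Ctxn2, which encodes a cortexin family membrane protein, had 5.16, 3.38 and 1.91 TPM in WT and was at 0 or under 1e-06 TPM in cKO (adjusted p = 0.155). Such zeros also occurred apart from genotype. Mag, a myelin glycoprotein of oligodendrocytes, was at 0.00237 TPM in male WT replicate 2 and at 4.76 to 13.6 TPM elsewhere in the 6, while Mog, another myelin gene, was at 36.0 TPM in that library. Tyrobp, an adaptor that microglia make, was listed at 0 in all 6 libraries. Listed zeros in 1 library alone, with at least 1 TPM in the other 5, numbered 33 genes. Pseudogene reads can also be split with a parent gene of like sequence.

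The genes with the clearest higher level in cKO were Gm15319 and Col7a1. Gm15319, a predicted protein-coding gene on chromosome 8, was at 1.5, 1.56 and 1.64 TPM in male WT replicates 1 to 3 and at 5.17, 6.24 and 5.40 TPM in the 3 cKO libraries in the order given above. No library of one genotype entered the range of the other. Its mean was 3.58-fold higher in cKO, with a log2 fold change of 1.77 ± 0.18 (SE) and an adjusted p of 0.0697 in limma, just short of the threshold. Col7a1, the collagen of the anchoring fibrils that tie epithelial basement membranes to connective tissue, was at 1.03, 1.60 and 0.902 TPM in WT and at 5.49, 6.38 and 6.53 TPM in cKO. The means were 1.18 ± 0.37 and 6.13 ± 0.56 TPM (SD, n = 3), and the log2 fold change was 2.32 ± 0.25 (SE; limma, adjusted p = 0.0904). Of the 33 collagen genes tested, 3 were higher (9.09%, against 2.86% of all genes) and 2 lower (6.06%, against 2.44%) at an unadjusted p under 0.05, and the median was 0.21. Leaving out single libraries gave 1 to 6 higher, with 1 without male WT replicate 1 and 6 without male cKO replicate 2, and a median of 0.10 without female cKO replicate 3. The other 2 higher were Col3a1, a fibrillar collagen of connective tissue, and Col6a4, at 0.469, 0.979 and 1.16 TPM in WT and 1.25, 2.5 and 1.88 TPM in cKO. When the 3 remaining cKO libraries with a CMV name were added, Gm15319 and Col7a1 both passed, with adjusted p of 0.000544 and 0.000544 in limma. Y-linked genes summed to 0.642 to 1.10 TPM in the 3 added libraries and 109.6 to 125.5 TPM in the WT libraries. Sex was thus not matched between genotypes in that fit.

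Further down the ordered list came genes of signalling and metabolism. None of the following passed the adjusted test in the 6 libraries. Ccl25, a chemokine that draws thymocytes and gut T cells, had 7.21, 9.19 and 6.22 TPM in WT and 15.8, 15.3 and 21.4 TPM in cKO (log2 fold change 1.21 ± 0.19 SE). Sds, the serine dehydratase that turns serine into pyruvate, had 2.25, 2.66 and 3.26 TPM in WT and 11.8, 7.12 and 6.76 TPM in cKO (1.59 ± 0.25). Spx, which encodes the neuropeptide spexin, had 1.04, 0.387 and 1.80 TPM in WT and 4.76, 6.03 and 8.32 TPM in cKO (2.63 ± 0.49). In each of these 3 genes the lowest cKO library was above the highest WT library. The choice of the 12 leading genes in each direction required this lack of overlap. Ovgp1, an oviduct glycoprotein of the chitinase family, was shifted less but with little scatter, from 13.4, 12.4 and 13.8 TPM in WT to 19.5, 20.3 and 21.9 TPM in cKO (0.64 ± 0.09).

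Leaving aside the predicted gene Gm15319, the rest of the 12 leading higher genes were Gnb1l, Tgm4, Clic3, Zfp219, Fam83h, Acsm3 and Lrg1, with log2 fold changes from 0.80 for Clic3 to 1.67 for Acsm3. Gnb1l, a WD-repeat protein, had a mean log2 difference of 1.00 and cKO values of 4.50 to 4.98 TPM against 1.94 to 2.55 TPM. Acsm3, a mitochondrial acyl-CoA synthetase for medium-chain fatty acids, reached 3.14 to 4.37 TPM in cKO against 0.590 to 1.67 TPM in WT. Lrg1, a secreted leucine-rich glycoprotein of vessels and inflammation, was at 2.07 to 2.48 TPM against 0.650 to 1.12 TPM. Several of these genes are low, at a few TPM, where an added 0.1 TPM slightly lowers the fold change.

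Apart from Dek, none of the leading lower genes described next passed the adjusted test in the 6 libraries. Cacnb4, the beta-4 subunit of voltage-gated calcium channels, had 55.4, 60.3 and 56.6 TPM in WT and 36.6, 40.4 and 36.7 TPM in cKO (log2 fold change -0.60 ± 0.08 SE; limma, adjusted p = 0.192). Nr4a2, an orphan nuclear receptor and activity-induced transcription factor, had 64.9, 65.9 and 64.4 TPM in WT and 23.2, 39.9 and 28.6 TPM in cKO (-1.12 ± 0.18; adjusted p = 0.426). The WT libraries lay close together for Nr4a2, and its cKO libraries were spread more widely, all below them as the choice of leading genes required. Wfs1, the endoplasmic reticulum protein wolframin and a marker of CA1 neurons, had 55.3, 68.1 and 68.9 TPM in WT and 36.5, 46.3 and 42.4 TPM in cKO (-0.62 ± 0.12).

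Rxfp1, the relaxin receptor, was at 6.22 to 8.28 TPM in WT and 2.70 to 4.56 TPM in cKO (log2 fold change -1.06 ± 0.22 SE). A lack of overlap between the genotypes was required of every leading gene. Eps8l1, an actin regulator, had 34.2 to 37.0 TPM in WT and 19.9 to 26.2 TPM in cKO (-0.68 ± 0.11), and Plxdc1, a plexin-domain membrane protein, 12.1 to 12.8 TPM in WT and 7.05 to 8.68 TPM in cKO (-0.67 ± 0.11). Galnt13, a neuronal enzyme that starts O-glycans, Dbil5, a member of the acyl-CoA-binding family, and Tox, an HMG-box transcription factor, were also among the 12 leading lower genes, at log2 fold changes of -0.67, -1.35 and -0.63. Without male cKO replicate 2, Nr4a2 passed the adjusted test (adjusted p = 0.0371 in limma), and the nominal counts rose to 281 higher and 208 lower.

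**Figure D2:**
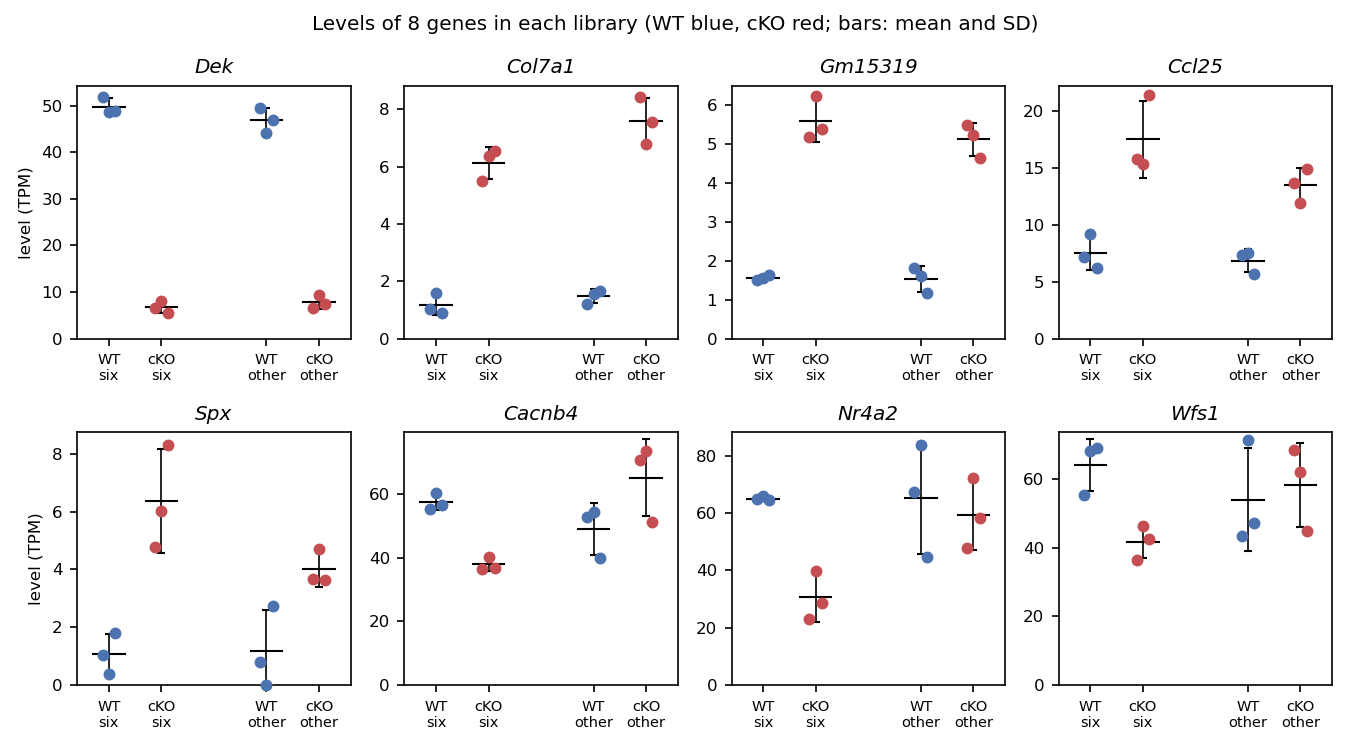
Levels (TPM, y axes starting at 0) of 8 genes in each library, for the 6 libraries compared (left pair) and the other 6 (right pair), with WT in blue, cKO in red, and the mean with its SD as bars (n = 3). Dek, Col7a1, Gm15319, Ccl25 and Spx keep their genotypes apart in both pairs, whereas Cacnb4, Nr4a2 and Wfs1 do so only in the left pair. Apart from Dek and Gm15319, these genes were chosen among those with no overlap in the left pair.

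The same genes were then read in the other 6 libraries, which share no sample with these. They comprise female WT replicates 1, 2 and 3, female cKO replicates 1 and 2, and the library labelled male cKO replicate 1. Their WT names begin with C57 and their cKO names with CMV, so name prefix and genotype cannot be told apart there. The 4 Y-linked genes summed to 96.3 to 125.5 TPM in the 6 libraries compared and to 0.613 to 1.77 TPM in these other 6. Sex, as read from those genes, therefore cannot be told apart from library set. Its part in any difference between the sets was not tested. Of the 156 nominal higher genes, 109 (69.9%) were also higher in those cKO libraries, against 58.5% of all genes tested, and their median log2 fold change there was 0.25. Of the 79 nominal lower genes, 24 (30.4%) were also lower, against 41.5% of all genes, with a median of +0.27. In the higher direction 37 genes were nominal in both sets, 23.7% of the list from the 6 and 15.4% of the list from the others, where 1.71% of all genes were nominal. In the lower direction 3 genes were, 3.80% and 4.35% of the lists, with 0.490% of all genes nominal there. Those 3 were Dek, the processed pseudogene Gm13092 and Lrrc26, an auxiliary subunit of large-conductance potassium channels at 4.14, 4.99 and 4.65 TPM in WT and 3.23, 2.10 and 3.5 TPM in cKO of the 6.

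Among the 12 leading higher genes 11 had the same sign in the other 6 libraries and 7 of them had an unadjusted p under 0.05 there. Col7a1 had a log2 fold change of 2.29 there and passed the adjusted test in those libraries alone (limma, adjusted p = 0.0297). The predicted gene Gm15319, which is not one of the 12, stood at 1.69. The others with an unadjusted p under 0.05 were Spx at 2.68, Sds at 1.57, Ccl25 at 0.97, Clic3 at 0.70, Fam83h at 1.02 and Ovgp1 at 0.60. Acsm3 was the exception, at -0.65. Among the 12 leading lower genes 2 had the same sign, Dek and Nr4a2, and Nr4a2 was at -0.11. Cacnb4 was at 0.40, Rxfp1 at 0.67 and Tox at 0.57 in those libraries. By the test of the difference between the 2 effects, 1 gene passed an adjusted p of 0.05 (0.00711% of genes tested), the pseudogene Gm16053. Over all 14069 genes the fold changes of the 2 sets had a Pearson r of -0.0015 across genes, which are not independent replicates.

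**Figure D3:**
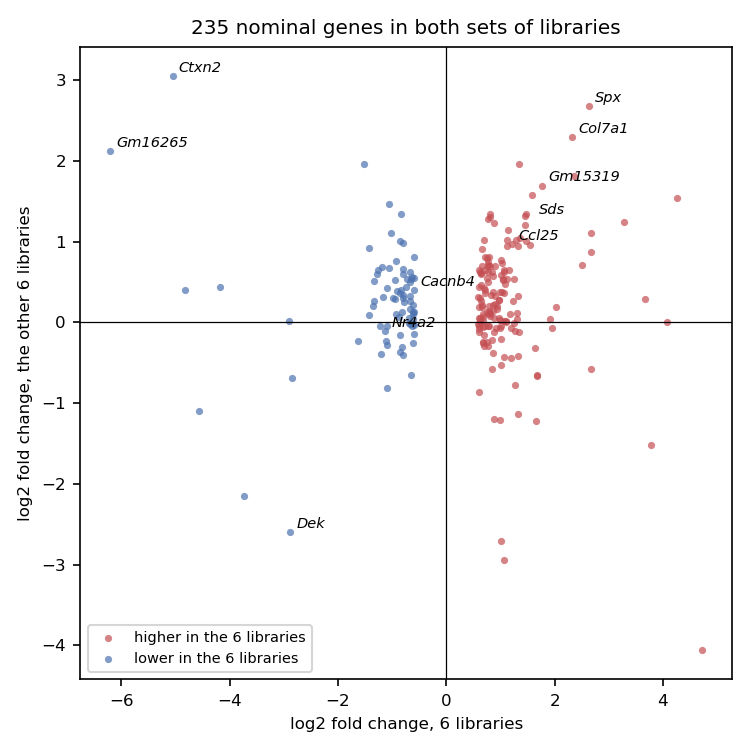
The 235 nominal genes of the 6 libraries, with their log2 fold change in the 6 (x axis) and in the other 6 (y axis), red for higher and blue for lower genes. Dek is a lower gene with a large negative value in both, and Col7a1, Gm15319, Sds, Ccl25 and Spx lie in the upper right. Of the 79 blue points, 24 lie below 0 on the y axis.

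Genes that interferon induces were read as lists. Interferons act through receptors that switch on antiviral effectors, which block viral RNA and proteins, and through GTPases that attack vacuoles holding pathogens. Of 37 antiviral genes tested, 30 had a log2 fold change above 0 (81.1%, against 49.9% of all genes). At an unadjusted p under 0.05, 7 were higher (18.9%, against 2.86%) and 1 was lower (2.70%, against 2.44%). The median was 0.26 against 0.00 for all genes, and none passed the adjusted test. Oasl2, an oligoadenylate synthetase-like protein, had 3.93, 2.39 and 2.30 TPM in WT and 4.47, 4.99 and 6.62 TPM in cKO. Ifit3, which binds viral RNA complexes, had 6.86, 5.40 and 5.47 TPM in WT and 7.04, 12 and 17.4 TPM in cKO, and Ifit1, which binds uncapped viral RNA, had 1.31, 0.916 and 1.18 TPM in WT and 1.51, 2.54 and 3.32 TPM in cKO. Isg15, a ubiquitin-like modifier, had 6.05, 3.44 and 5.02 TPM in WT and 7.54, 6.46 and 7.54 TPM in cKO. All 4 kept the genotypes apart, and in Ifit3 and Ifit1 female cKO replicate 3 lay close to the highest WT library. The count fell to 1 without male WT replicate 2, to 2 without male WT replicate 3 and to 4 without male cKO replicate 3.

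Of the 12 GTPases induced by interferon gamma, 11 were above 0, with a median of 0.60, and 2 had an unadjusted p under 0.05 (16.7%, against 2.86% of all genes). None did without male WT replicate 1 or without male WT replicate 2. Tgtp2 had 1.34, 0.588 and 1.87 TPM in WT and 2.60, 2.86 and 2.04 TPM in cKO. Gbp2 had 2.57, 1.49 and 2.37 TPM in WT and 3.29, 3.24 and 13 TPM in cKO, so that male cKO replicate 3 stood far above the other 5. Without that library the median of the GTPases was 0.27 and that of the antiviral genes 0.21. The other 6 libraries gave medians of 0.28 and 0.19. Of 21 genes of MHC class I and antigen processing, which display peptides to cytotoxic T cells, 18 were above 0 (median 0.15). The immunoproteasome subunit Psmb8 alone was higher at an unadjusted p under 0.05 (4.76%, against 2.86% of all genes).

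Promoters of 4 of the interferon genes named are shown because factors of the interferon response bind a known repeat there, the interferon-stimulated response element. The 250 bases before the RefSeq start (GRCm38.p6) were searched for GAAA followed after any 2 bases by a further GAAA, and for the reverse complement, TTTC and TTTC with the same gap, and overlapping matches were counted. Of 29 antiviral genes with a promoter in the RefSeq table, 9 held a match (31%), as did 9 of 10 GTPases (90%) and 3.46% of all 27025 genes of the table. Oasl2 held none in this window, and Tgtp2 held 1 and is not printed. Matches are in capitals, 5′ to 3′ on the strand of the gene.
Ifit3, chr19:34583279-34583528, plus strand: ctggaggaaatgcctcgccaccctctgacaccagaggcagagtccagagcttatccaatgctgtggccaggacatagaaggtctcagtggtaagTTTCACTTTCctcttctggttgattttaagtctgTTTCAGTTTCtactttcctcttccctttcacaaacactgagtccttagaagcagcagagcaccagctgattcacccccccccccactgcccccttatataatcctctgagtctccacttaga
Ifit1, chr19:34640639-34640888, plus strand: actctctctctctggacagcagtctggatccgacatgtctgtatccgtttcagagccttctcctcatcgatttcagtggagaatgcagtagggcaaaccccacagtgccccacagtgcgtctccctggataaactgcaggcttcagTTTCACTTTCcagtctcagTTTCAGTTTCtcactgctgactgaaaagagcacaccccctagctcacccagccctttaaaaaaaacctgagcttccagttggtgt
Isg15, chr4:156200819-156201068, minus strand: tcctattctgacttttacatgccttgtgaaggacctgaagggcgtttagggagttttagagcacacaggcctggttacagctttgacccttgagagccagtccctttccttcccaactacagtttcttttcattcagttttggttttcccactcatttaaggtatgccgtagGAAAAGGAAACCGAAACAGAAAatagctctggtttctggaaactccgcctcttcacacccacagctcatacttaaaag
Gbp2, chr3:142620413-142620662, plus strand: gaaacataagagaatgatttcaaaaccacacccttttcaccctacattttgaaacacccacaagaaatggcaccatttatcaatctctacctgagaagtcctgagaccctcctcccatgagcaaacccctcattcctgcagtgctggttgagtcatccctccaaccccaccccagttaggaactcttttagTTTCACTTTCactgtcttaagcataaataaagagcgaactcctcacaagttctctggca

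Complement and microglial genes followed. Of 20 complement genes 17 were above 0 (median 0.18) and 2 had an unadjusted p under 0.05, both higher (10%, against 2.86% of all genes). That count was 0 without male WT replicate 3 or female cKO replicate 3, 1 without male cKO replicate 3, 5 without male WT replicate 1 and 6 without male cKO replicate 2. C4b, the classical-pathway component made by astrocytes and others, had 61.3, 44.3 and 38.2 TPM in WT and 87.4, 52.6 and 76.2 TPM in cKO. C1qa, a chain of the initiating complex C1q made by microglia, had 86.1, 71.3 and 67.0 TPM in WT and 98.3, 80.3 and 93.5 TPM in cKO. Both genes overlapped between the genotypes. Of 24 microglial markers 3 were higher (12.5%, against 2.86% of all genes) and 2 lower (8.33%, against 2.44%) at an unadjusted p under 0.05. P2ry12, the nucleotide receptor of resting microglia, was among the lower at 29.2, 25.5 and 25.5 TPM in WT and 16.5, 22.6 and 8.21 TPM in cKO, while Fcer1g, an immunoreceptor adaptor, was among the higher at 19.5, 21.1 and 13 TPM in WT and 28.2, 21.7 and 25.4 TPM in cKO. The markers Tmem119 (17.8 to 27.8 TPM) and Cx3cr1 (16.5 to 23.1 TPM) overlapped. None of the 24 was higher at that p without male cKO replicate 3 or without male WT replicate 3, and 7 were without male WT replicate 1. In the other 6 libraries none of the 24 was higher or lower at that p, and their median was 0.01. In bulk tissue fewer cells of a type and less RNA per cell cannot be told apart.

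Genes of reactive glia and injury were led by 1 library. Of 19 tested, 17 were above 0 and 6 were higher at an unadjusted p under 0.05 (31.6%, against 2.86% of all genes), with a median of 0.92. The count of 6 was 1 without male WT replicate 1, 0 without male WT replicate 2 or 3, 8 when male cKO replicate 2 was omitted and 3 when male cKO replicate 3 was. Vim, an intermediate filament of reactive astrocytes, had 31.2, 31.2 and 30.6 TPM in WT and 52.7, 35.8 and 90.8 TPM in cKO. Gfap, the main astrocyte filament, had 276, 229 and 208 TPM in WT and 437, 229 and 1267 TPM in cKO. Serpina3n, a protease inhibitor of reactive astrocytes, had 34.7, 42.0 and 36.1 TPM in WT and 91.6, 38.4 and 225 TPM in cKO. In all 3 genes male cKO replicate 3 was the highest of the 6, female cKO replicate 3 was next, and male cKO replicate 2 was close to WT. Ccl2, which recruits monocytes, had 0.228, 0.248 and 0.419 TPM in WT and 0.915, 0.559 and 4.69 TPM in cKO. Without male cKO replicate 3 the median of the list was 0.36, and in the other 6 libraries it was 0.03 with none of the 19 at an unadjusted p under 0.05. The 17 astrocyte markers as a whole had a median of -0.01, and none reached that p. Serpins showed a like pattern, with a median of 0.58 over 17 genes, 0.33 without male cKO replicate 3, and 0.00 in the other libraries.

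Some markers of cortical and CA1 pyramidal neurons had lower levels in cKO, but none passed the adjusted test. Of 18 cortex markers 2 were above 0, with a median of -0.41. At an unadjusted p under 0.05, 6 were lower (33.3%, against 2.44% of all genes) and 1 was higher (5.56%, against 2.86%). Tbr1, a transcription factor of deep-layer glutamatergic neurons, had 32.6, 29.2 and 32.7 TPM in WT and 23.8, 23.3 and 17.4 TPM in cKO. Cux2, of upper-layer neurons, had 25.5, 22.9 and 24.4 TPM in WT and 16.3, 20.5 and 18.0 TPM in cKO. Neither overlapped between the genotypes. The count of lower genes stayed between 4 and 9 when any single library was left out. The same list had a median of +0.46 in the other 6 libraries, with 7 genes higher and none lower at that p, where 6.27% of all genes were higher and 2.37% lower. The summed level of the 18 genes was 389.4 to 414.6 TPM in WT and 299.6 to 395.6 TPM in cKO of the 6, and none was at 0. The adjoining cortex is not part of the hippocampus, and some of these genes are also made in it; the share of cortical tissue in each dissection was not tested.

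Of 16 CA1 markers 5 were lower (31.2%, against 2.44% of all genes) and 1 higher (6.25%, against 2.86%) at an unadjusted p under 0.05. The median was -0.22, and Wfs1, described above, was among the 5. The count of 5 was 2 without male WT replicate 3 and 3 without male WT replicate 2. Mpped1, a metallophosphoesterase gene of these neurons, had 141, 161 and 142 TPM in WT and 107, 131 and 131 TPM in cKO. The median was -0.05 with 2 lower in the other 6 libraries, where 2.37% of all genes were lower. The 18 markers of CA2 and CA3 neurons had a median of 0.09 with 1 higher (5.56%, against 2.86% of all genes). The 20 markers of dentate granule cells had a median of -0.07 with 1 higher (5%). C1ql2, a synaptic organizer secreted by mossy fibres, was that gene, at 57.7, 100.1 and 71.2 TPM in WT and 112, 92.7 and 103 TPM in cKO.

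Potassium channels came next among the neuronal genes. Of 72 tested, 9 were lower (12.5%, against 2.44% of all genes) and 2 higher (2.78%, against 2.86%) at an unadjusted p under 0.05, none passed the adjusted test, and 21 were above 0 (29.2%, against 49.9%) with a median of -0.09. Kcnh7, an Erg-type channel, had 11.6, 11.4 and 12 TPM in WT and 8.78, 9.24 and 7.43 TPM in cKO. Kcnq3, a subunit of the M-current channel that damps repetitive firing, had 40.2, 38.5 and 40.6 TPM in WT and 35.6, 32.3 and 29.6 TPM in cKO. Kcnj9, a G protein-gated inward rectifier, had 54.1, 59.4 and 54.3 TPM in WT and 40.3, 49.5 and 32.3 TPM in cKO, and Kcng3, a silent modifier subunit, had 2.48, 2.49 and 2.46 TPM in WT and 1.14, 1.81 and 0.959 TPM in cKO. All 4 kept the genotypes apart, with shifts of -0.29 to -0.92 on the log2 scale. Elsewhere, in the other 6 libraries, 11 potassium channels were higher and 3 lower at that p, where 6.27% of all genes were higher and 2.37% lower. The median of the channels there was +0.11, against 0.03 for all genes.

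Among 55 sodium, chloride and calcium channels the median was -0.04. At an unadjusted p under 0.05, 4 were lower (7.27%, against 2.44% of all genes) and 1 higher (1.82%, against 2.86%). Besides Cacnb4, these included Scn1a, a sodium channel of fast-spiking interneurons, at 31.7, 30.5 and 32.6 TPM in WT and 27.3, 26.5 and 24.2 TPM in cKO. Cacna1i, a T-type calcium channel, was at 19.0, 20.0 and 21.1 TPM in WT and 15.8, 16.6 and 16.5 TPM in cKO. The higher gene was Tmc4, a voltage-dependent chloride channel, at 8.34, 10.7 and 7.03 TPM in WT and 14.9, 14.5 and 12.9 TPM in cKO, with a like log2 fold change of 0.71 here and 0.81 in the other 6 libraries. Of 64 presynaptic genes 4 were lower (6.25%, against 2.44% of all genes) and 1 higher (1.56%, against 2.86%). Of 50 postsynaptic genes 8 were above 0 (16%, against 49.9% of all genes), with a median of -0.06. Of these 50, 1 was lower at that p (2%, against 2.44%). That gene was Arhgap32, a GTPase-activating protein, at 46.2, 42.9 and 45.3 TPM in WT and 33.1, 36.0 and 35.1 TPM in cKO. Syt1, the calcium sensor of vesicle release, was at 634, 693 and 680.4 TPM in WT and 613, 579 and 535 TPM in cKO. None of 13 GABA-A receptor subunits reached that p. Of 17 ionotropic glutamate receptor subunits 1 was lower (5.88%, against 2.44% of all genes). That gene was Grik3, at 14.8, 14.3 and 14.5 TPM in WT and 8.77, 12.9 and 10.1 TPM in cKO.

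Cytosolic ribosomal protein genes had small differences, most of them above 0. Of 77 tested, 67 were above 0 (87.0%, against 49.9% of all genes), 14 were higher at an unadjusted p under 0.05 (18.2%, against 2.86% of all genes) and none was lower. None passed the adjusted test. The median was only 0.11. Rpl13a, a protein of the large subunit, had 149, 148 and 149 TPM in WT and 178, 187 and 192 TPM in cKO, and Rpl35 had 238, 224 and 232 TPM in WT and 283, 267 and 266 TPM in cKO. In 23 of the 77 no cKO value was within the WT range, all of them higher (29.9%, against 5.54% of all genes). The count of 14 was 5 to 17 when single libraries were left out, lowest without male WT replicate 2 or 3. In the other 6 libraries the median was -0.03 and none was higher at that p. Reads of ribosomal protein genes can be shared with their many processed pseudogenes. Fbl, the nucleolar methyltransferase fibrillarin, was at 41.1, 39.6 and 40.7 TPM in WT and 45.3, 51.3 and 56.2 TPM in cKO, and its log2 fold change of 0.33 compares with 0.31 in the other libraries.

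Chromatin genes, the class to which DEK belongs, showed few differences. None of 87 histone-modifying enzymes and none of 28 histone variant genes reached an unadjusted p under 0.05, with medians of 0.01 and 0.04. Of 65 H3.3 chaperones and heterochromatin genes 2 were lower (3.08%, against 2.44% of all genes). These were Nap1l3 and Uhrf2, a reader of modified cytosine, the latter at 43.4, 44.2 and 46.2 TPM in WT and 36.7, 40.0 and 36.7 TPM in cKO. Of 22 cohesin and condensin genes 1 was higher (4.55%, against 2.86% of all genes). It was the cohesin loader Mau2, at 20.2, 22 and 21.4 TPM in WT and 27.1, 24.5 and 26.2 TPM in cKO. Its log2 fold change was 0.29 here and 0.52 in the other 6 libraries. Of 84 DNA repair genes 4 were higher (4.76%, against 2.86% of all genes) and none lower (median 0.02), and of 134 splicing factors 4 were higher (2.99%) and 5 lower (3.73%, against 2.44%), shares near those of all genes. Of 52 Wnt pathway genes 1 was lower (1.92%), Wnt5a, and of 37 genes of the unfolded protein response 1 (2.70%), Wfs1, against 2.44% of all genes. Of 28 p53 targets 2 were higher and 2 lower (7.14% each, against 2.86% and 2.44% of all genes). Sfn, the 14-3-3 sigma protein, was 0.77 higher here and 0.75 higher in the other libraries on the log2 scale. In neuropeptides, 4 of 24 were higher (16.7%, against 2.86% of all genes) and 1 lower (4.17%, against 2.44%). They were led by Pnoc, the nociceptin precursor, at 3.92, 2.73 and 4.10 TPM in WT and 5.85, 5.44 and 5.91 TPM in cKO. Pnoc had a log2 fold change of 0.68 here and -0.24 in the other 6 libraries. In 21 clock genes the median was -0.24 and 1 was lower (4.76%, against 2.44% of all genes). It was the output factor Hlf, at 63.7, 62.6 and 65.9 TPM in WT and 32.3, 58.2 and 21.3 TPM in cKO. Without male cKO replicate 3 the median of the clock genes was -0.07, and the list score of that library was -0.32 against -0.05 to 0.05 in the other 5.

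Ackr1 and Dpm1 were the remaining genes named by the study that separated the genotypes here with an unadjusted p under 0.05. Ackr1, a scavenging receptor for chemokines on venules, had 38.5, 44.1 and 42.1 TPM in WT and 61.5, 52.9 and 71.2 TPM in cKO, and Dpm1, which makes the mannose donor for glycosylation, had 103, 110.1 and 112 TPM in WT and 144, 150.1 and 122 TPM in cKO. Rhoa, Rspo1, Palmd, Npcd, Mthfsd, Ppp1r7, Sbk3, Tnfrsf23 and Clcn1 did not reach that p, with log2 fold changes from -0.13 for Rspo1 to 0.75 for Sbk3. The study used a count model, analysed the sexes together and apart, and reported higher Rhoa in both sexes by quantitative RT-PCR. Its Rspo1 result was for females, whereas the libraries compared here all carried Y-linked transcripts. A3galt2, which was under the filter of 1 TPM, was at 0.379, 0.246 and 0.330 TPM in WT and 0.994, 1.09 and 1.85 TPM in cKO. Ccl7, a monocyte chemokine also under the filter, was at 3.76 TPM in male cKO replicate 3 and at 0 to 0.342 TPM in the other 5.

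**Figure D4:**
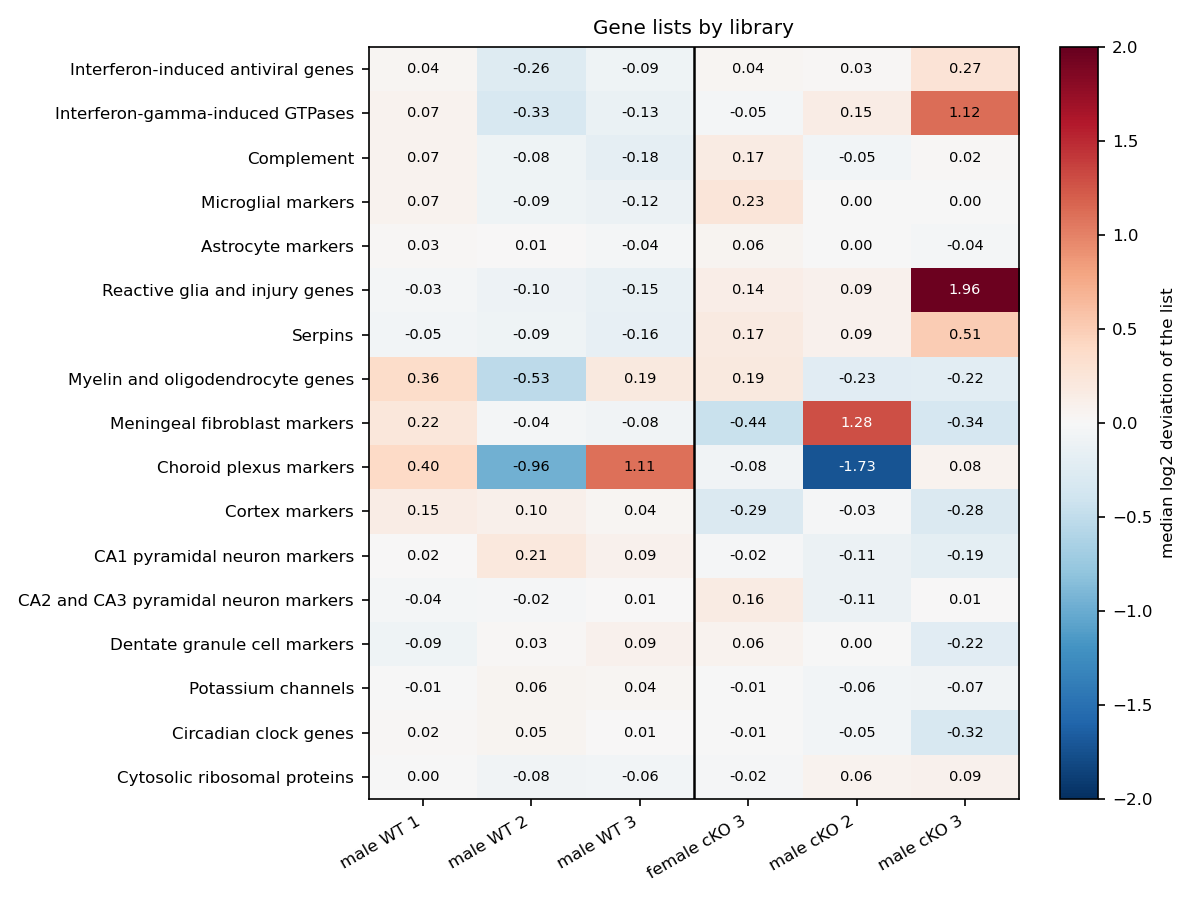
Median log2 deviation of the tested genes of 17 lists (rows) from their median over the 6 libraries, for each library (columns, WT left of the line, cKO right), with the value printed in each cell. Reactive glia and injury genes stand at 1.97 in male cKO replicate 3 and between -0.15 and 0.14 in the other 5, and choroid plexus markers range from -1.73 to 1.11.

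The cKO libraries were spread more widely than the WT libraries. The median SD over genes, on the log2 scale, was 0.17 in the 3 cKO and 0.11 in the 3 WT libraries, and the SD was the larger in cKO for 67.5% of genes. Without male cKO replicate 3 the cKO value was 0.12. Pairwise Pearson r across genes was 0.967 to 0.972 within WT, 0.951 to 0.960 within cKO and 0.954 to 0.973 between genotypes. The range between genotypes thus held all WT values and reached above all cKO values. In a principal component analysis of the 500 most variable genes, the first 3 components held 25.8%, 23.3% and 20.3% of the variance. Each was set by 1 library, female cKO replicate 3 in the first, male cKO replicate 3 in the second and male WT replicate 3 in the third, and none separated the genotypes.

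Male cKO replicate 3 stood farthest from the median of the 6 in 5057 of 14069 genes (35.9%), followed by female cKO replicate 3 in 2637. It was more than 1 log2 unit above all 5 others in 143 genes and below them in 85. Cxcl10, an interferon-induced chemokine, was at 26.5 TPM there and at 0.438 to 1.61 TPM in the other 5. Lif, a cytokine of the interleukin-6 family, was at 33.6 TPM against 0.667 to 2.16 TPM, and Timp1, an inhibitor of matrix metalloproteases, at 39.2 TPM against 2.05 to 2.87 TPM. The next 3 genes were named after their values were seen. Socs3, a feedback inhibitor of cytokine signalling, was at 23.5 TPM against 1.54 to 2.90 TPM, Cd44, a hyaluronan receptor, at 26.5 TPM against 3.01 to 3.53 TPM, and Ptx3, a secreted pattern recognition protein, at 24.6 TPM against 0.0516 to 0.587 TPM. The mitochondrial transcript mt-Atp8 was at 22730 TPM there and at 41999 to 47104 TPM in the other 5. Lcn2, another gene of inflammation, was at 1.64 TPM and within the range of the others. These values came from 1 library, and in each of the genes named the other 2 cKO libraries lay within or near the WT range.

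Each of the other libraries had smaller sets of its own. Male cKO replicate 2 was highest in meningeal genes, with a list score of 1.28. Fmod, a collagen-binding proteoglycan, was at 20.9 TPM there against 1.52 to 6.50 TPM, Slc6a13, a GABA transporter of the leptomeninges, at 29.5 TPM against 4.20 to 9.53 TPM, and Ptgds, the prostaglandin D synthase of meninges and choroid plexus, at 3061 TPM against 425 to 1122 TPM. The same library was lowest in choroid plexus, the tissue that makes cerebrospinal fluid. Ttr, the transthyretin that it secretes, was at 48.8 TPM there and at 559 to 2940 TPM in the other 5, and the summed level of 20 choroid plexus markers was 213.7 TPM against 787.6 to 3691 TPM. The median log2 fold change over these 20 genes was -0.71, with 1 of them above 0, yet none had an unadjusted p under 0.05. Without male cKO replicate 2 that median was -0.14, and in the other 6 libraries it was 1.06.

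In female cKO replicate 3 the transcription factors Zic4 and Zic1 were highest, at 12.3 and 22.9 TPM against 1.97 to 5.83 and 4.45 to 11.8 TPM, as was Mrpl17, a mitochondrial ribosomal protein, at 12.4 TPM against 4.04 to 6.81 TPM. Male WT replicate 3 was highest in the choroid plexus genes Sostdc1 and Kcne2, at 16.1 and 12.4 TPM, and in Defb11, a defensin, at 13.8 TPM. Male WT replicate 1 led in Cfap69, Traf7 and Chd7, by 0.58 to 0.69 log2 units over the next library, and male WT replicate 2 in Cryz, St6gal1 and Pagr1a, by 0.48 to 0.71. Male WT replicate 2 was also lowest in myelin genes, with a summed level of 3155 TPM over 23 genes against 3590 to 6418 TPM in the other 5. The part of meningeal, choroid plexus and myelin tissue in any genotype difference was not tested.

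**Figure D5:**
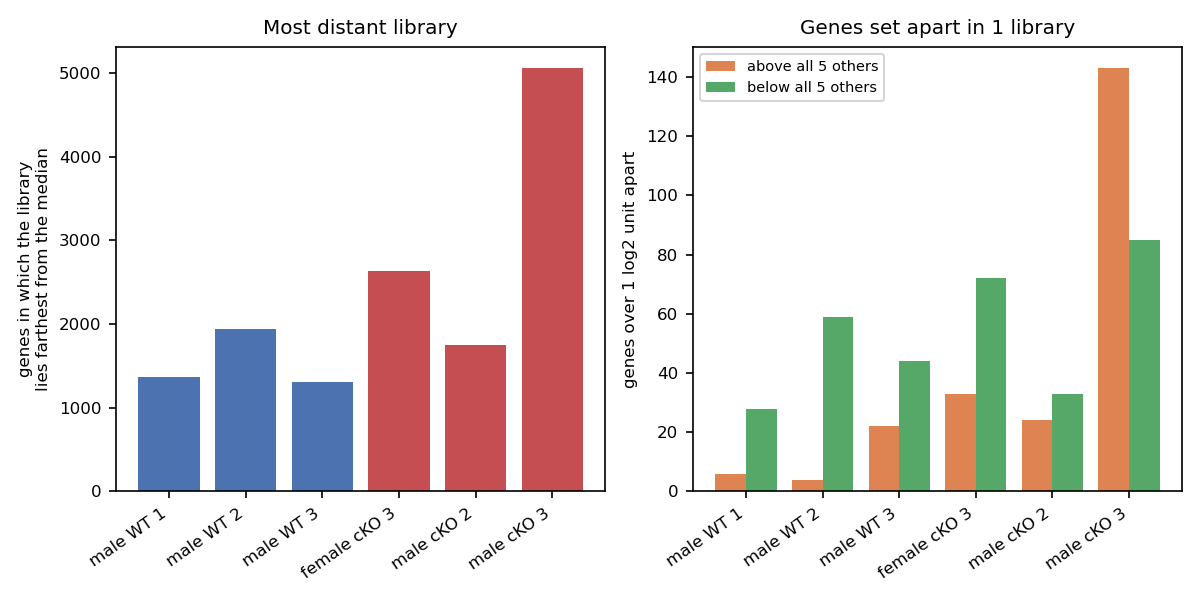
Left, number of the 14069 tested genes in which each library lay farthest from the median of the 6 (WT blue, cKO red). Right, number of genes more than 1 log2 unit above (orange) or below (green) all 5 other libraries, with male cKO replicate 3 at 143 and 85.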

How the data were processed

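Hippocampal RNA was sequenced from 12 libraries (poly-A selected, stranded, paired reads), and the authors deposited 1 table of gene-level TPM values. The study's methods name STAR and Salmon on GRCm38, while the submitters' processing notes name kallisto and mm10, and which of them wrote the table is not given in the sources used here. TPM keeps no counts, so no count model was run and depth is unknown. Columns were matched to samples by library name, and groups follow the labels, which number the libraries as replicates, so p-values measure the spread between these libraries.

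Of 26409 genes listed, 25262 matched GENCODE M21 (GRCm38) for names and positions. Genes whose mean in the 6 libraries reached 1 TPM entered a test on log2(TPM + 0.1) with limma 3.58.1 (R 4.3.3), with a variance trend and Benjamini-Hochberg adjustment over 14069 genes. A call needed an adjusted p under 0.05 and a fold over 1.2. The difference between the effects in the 6 and the other 6 libraries was a contrast in 1 fit of all 12. Simulation of 200 genes changed by 1 log2 unit gave 13 false calls, changes of 2 gave 12, and no change gave 0. No 2 of the 6 libraries shared over 0.00711% identical values.

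The libraries, members and gene lists were chosen with earlier results of these data known. Genes were named by a fixed rule, namely Dek, the genes called, the 12 higher and 12 lower nominal genes with the smallest p and no overlap between genotypes (predicted genes and pseudogenes left out), up to 4 genes with the smallest p in each list described, genes that the study names, Y-linked genes, and up to 3 genes in which each library stood apart. Exceptions are marked as named after their values were seen, and these also include Serpina3n, Tmem119, Cx3cr1, Lrrc26, Gm13092, Tyrobp, Mog, mt-Atp8, Lcn2 and the hippocampal markers. Some genes that meet the rule are not reported here. Alternatives covered the TPM added, the filter, scaling, the variance trend, each library left out, and other choices of libraries, and 2 were added after seeing the data (protein-coding genes only, and genes above 0 in all 6 libraries).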

Additional observations from a re-analysis of the deposited data

Results flagged for a closer look

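Gm16053, a processed pseudogene on chromosome 7, was the 1 gene whose genotype effect differed between the 6 libraries and the other 6 by the test of the difference itself. The difference of the log2 fold changes was -5.22 ± 0.57 (SE; limma, adjusted p = 0.0195). It was listed at 0 in female cKO replicate 3, male cKO replicate 2 and male cKO replicate 3, at 1.67 to 4.44 TPM in the 3 WT libraries beside them, and at 2.86 to 7.11 TPM in all of the other 6 libraries. Because a listed zero can be a failed estimate, these values are given per library. The 2 sets of libraries also differed in Y-linked transcripts throughout.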

How the results depend on the processing

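Dek was called under 20 of 21 settings, and Gm16265 under 11 of the 18 in which it was tested. Gm15319 was called under 4 settings and Col7a1 under 2. Against 0 higher and 2 lower genes called, the counts were 2 and 1 with the 9 libraries of the CMV prefix (6 cKO), 1 and 1 with the cKO libraries labelled male, 1 and 5 with a filter of 0.1 TPM, 2 and 7 with no filter, 1 and 4 without the variance trend, 2 and 2 in 1 fit of 12 libraries, and 0 and 1 with a filter of 5 TPM. Lower calls were 1 among protein-coding genes only and 1 among genes above 0 in all 6 libraries. Left-out libraries gave 1 to 4 lower calls, 1 without any single WT library (Gm16265 then lost), 4 when male cKO replicate 2 was omitted and 3 when male cKO replicate 3 was.

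Against 156 higher and 79 lower nominal genes, a filter of 0.1 TPM gave 287 and 169, no filter 343 and 198, a filter of 5 TPM 48 and 29, and the 9 CMV libraries 151 and 31, and leaving out single libraries gave 128 to 281 and 56 to 208, both highest without male cKO replicate 2. The 1 gene called for the difference between library sets was not called with 0.5 or 1 TPM added or with a filter of 5 TPM (0 genes each), and left-out libraries gave 0 to 7, the 7 without male cKO replicate 1. The cause of these shifts was not tested.

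With the replicate number as a block, 0 genes were called and Dek had an adjusted p of 0.0702 in limma. The numbers share no stated animal or litter, and the deviations of same-numbered libraries correlated at -0.0101 to 0.0513, so the block is given only here. None of the 24 leading genes changed sign under the alternatives run. They were chosen with no overlap between genotypes, so leaving out a library or adding more TPM could not change their sign. Of the 220 genes that the naming rule gives, 36 changed sign under at least 1 alternative, as did 29 of the 56 list medians. Precision is limited by 3 libraries a group and by unknown depth.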
